A study of Mus musculus with 686 samples.

Results

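The features described here were the 200 most abundant rows of the piRNA count table, out of 35624 rows annotated as PIWI-interacting RNAs (piRNAs). They were chosen by the mean, over all 686 libraries, of their count per 1000000 piRNA counts of the library, so their high abundance was fixed by the choice and is given as a description. These 200 features held 99.0% ± 0.699 (SD, n = 686 libraries) of all piRNA counts, with 94.7% in the lowest library, although all 35624 rows had at least 1 count somewhere and 97.1% of the cells of the table were empty. A total of 176 of the 200 were detected in every library, and the least widespread was detected in 676. At the lower end of the choice, piR-119101, oocyte_piRNA1436, oocyte_piRNA1473, piR-25515 and oocyte_piRNA2941 had means of 136.9, 136.5, 135.5, 131.7 and 128.7 per 1000000 piRNA counts, and piR-25256, piR-638, piR-4954, piR-1582 and piR-1077 stood just outside with 127.8, 127.6, 127.4, 125.3 and 122.7. The boundary therefore lies in a flat part of the ranking.

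The 686 small RNA libraries came from 83 mice, all female and of the strain BALB/cAnNTac, aged 3 or 8 months, with 13 tissues in all. The tissues were brain, diaphragm, heart, kidney, liver, lung, pancreas, spleen, thymus, brown adipose tissue (BAT) and gonadal (GAT), mesenteric (MAT) and subcutaneous (SCAT) white adipose tissue. Flight mice (FL) were compared with habitat ground controls (HGC), kept in flight hardware at double density under matched temperature, humidity and CO2, and with vivarium ground controls (VGC), kept 4 per standard cage. All mice ate NASA food bars from before launch. In the Live Animal Return (LAR) collection, FL mice spent 39.5 days on the International Space Station and were dissected 2 to 4 days after landing, HGC and VGC mice were kept on Earth on the same timeline, and tissues were frozen directly. ISS Terminal (TERM) mice were killed 22 to 24 days after launch, FL on the station and controls on Earth, and their carcasses were frozen whole and thawed for dissection, except that the spleen was placed fresh in RNA Later. LAR held 114 FL, 113 HGC and 121 VGC libraries and TERM held 115, 114 and 109, with 2 to 10 libraries per tissue, collection and arm, and 1 to 5 once these are split by age. The piRNA counts per library ran from 0.134 M to 19.6 M (M, 1000000 counts), with a median of 1.22 M, among 9.15 M to 428 M counts over 7 RNA classes (tRNA, rRNA, snoRNA, snRNA, miRNA, lncRNA and piRNA).

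In animals, piRNAs are small RNAs slightly longer than microRNAs (miRNAs) that are loaded into PIWI proteins and silence transposons, chiefly in the germ line. They are cut from long single-stranded transcripts without Dicer, and in mice the PIWI proteins are made mostly in testis and ovary. Catalogues of piRNA sequences were built by sequencing small RNA, and a catalogue entry can have the same letters as a stretch of a tRNA, an rRNA, a small nucleolar RNA (snoRNA) or a miRNA. In somatic tissue, a count for such an entry therefore does not by itself show a PIWI-bound RNA.

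The 200 features carried names of 2 catalogues. A total of 117 were named oocyte_piRNA, which was 58.5% of them against 7.94% of all 35624 rows, and these held 79.0% of the 200 features' counts. The remaining 83 were named piR. For each feature, the most closely correlated feature of the other 6 classes was searched over the 686 libraries on log2 CPM (counts per 1000000 counts of the 7 classes), with 1 added, after the mean of each tissue and collection was subtracted. The miRNAs that were closest to a feature at a correlation of 0.9 or more are shown because they give the letters of the RNA that these piRNA names followed. Of 17 such miRNAs, 13 were matched to RefSeq (GRCm38.p6), and no 2 of the 13 shared a seed. Mature sequences are written 5′ to 3′ with the seed, bases 2 to 8, in capitals.
miR-23a-3p, chr8:84208563-84208583 on the + strand, closest to oocyte_piRNA311: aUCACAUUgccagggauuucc
miR-199b-3p, chr2:32318524-32318545 on the + strand, closest to oocyte_piRNA2529 and oocyte_piRNA164: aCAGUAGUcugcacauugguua
let-7i-5p, chr10:122985698-122985719 on the − strand, closest to oocyte_piRNA413: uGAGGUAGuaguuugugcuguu
miR-126a-3p, chr2:26591402-26591423 on the + strand, closest to oocyte_piRNA1714: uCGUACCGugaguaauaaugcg
miR-138-5p, one of its 2 loci at chr8:94324312-94324334 on the + strand, closest to piR-300: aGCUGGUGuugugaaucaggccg
miR-17-5p, chr14:115043684-115043706 on the + strand, closest to oocyte_piRNA3673: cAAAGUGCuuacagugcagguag
miR-182-5p, chr6:30165962-30165986 on the − strand, closest to oocyte_piRNA3720: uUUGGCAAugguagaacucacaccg
miR-674-5p, chr2:117185151-117185172 on the + strand, closest to piR-134752 and piR-131827: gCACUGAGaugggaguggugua
miR-3473b, chr10:41670774-41670793 on the + strand, closest to oocyte_piRNA539: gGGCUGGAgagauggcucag
miR-142a-3p, chr11:87756903-87756925 on the + strand, closest to oocyte_piRNA458: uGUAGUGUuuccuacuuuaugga
miR-10a-5p, chr11:96317186-96317208 on the + strand, closest to oocyte_piRNA659: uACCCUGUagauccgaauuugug
miR-200a-5p, chr4:156054949-156054970 on the − strand, closest to oocyte_piRNA1088: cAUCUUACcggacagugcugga
miR-1839-5p, chr7:81529919-81529940 on the + strand, closest to piR-128159: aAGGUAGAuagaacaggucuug

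The best snoRNA and rRNA matches are shown from the GENCODE vM21 annotation of GRCm38. Snord104, a C/D box snoRNA that guides 2′-O-methylation of rRNA, was closest to piR-973, and n-R5s62, a 5S rRNA-like gene, was closest to oocyte_piRNA112.
Snord104, chr11:106500993-106501062 on the + strand: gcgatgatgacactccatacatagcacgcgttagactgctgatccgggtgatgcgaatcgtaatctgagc
n-R5s62, chr12:82150468-82150563 on the + strand: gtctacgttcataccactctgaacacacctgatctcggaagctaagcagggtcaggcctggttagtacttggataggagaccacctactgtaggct

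Tissue labels were checked on the miRNAs of the same libraries. Marker miRNAs were mostly highest in their own tissue. The median log2 CPM of miR-122, the liver miRNA, was 18.4 in liver against 10.3 in the next tissue. That of miR-124, the neuronal miRNA, was 17.5 in brain against 7.87. The kidney markers were higher in liver, miR-192 at 16.2 against 14.7 in kidney and miR-194 at 13.5 against 12.2. The thymus markers, miR-142a and miR-150, were higher in spleen. The lung marker miR-449a was higher in thymus and the BAT marker miR-365 in GAT. Of the markers set for both heart and diaphragm, miR-133a was higher in diaphragm and miR-1a in heart. By the whole miRNA profile, however, 166 of 686 libraries were closer to another tissue than to their own, with 46 of 57 in MAT, 20 of 60 in BAT, 19 of 59 in diaphragm, 4 of 39 in pancreas and 0 of 25 in brain. Counts of called features are therefore also given without these 166 libraries. One mouse also stood apart. In the 11 tissues sampled from mouse 16 of HGC LAR (8 months), a feature was the highest of its group and more than 4-fold above the group's median in 314 pairs of feature and tissue, against 111 for the next LAR mouse. There were 12 features for which this held in 8 or more of the 11 tissues, and no other mouse had a feature in 5 or more. Among the HGC LAR mice, the summed CPM of the 200 features was highest in this mouse in 9 of the 11 tissues and its tRNA share in 8. LAR comparisons between arms are given without this mouse as well.

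The counts were concentrated in few names. The highest feature, oocyte_piRNA2795, held 13.6% ± 9.97 of a library's piRNA counts (SD, n = 686), the 10 highest held 59.6% ± 9.92, and the 50 highest held 90.7% ± 4.37. Mean levels per 1000000 piRNA counts were 135880 for oocyte_piRNA2795, 110105 for oocyte_piRNA905, 56618 for oocyte_piRNA3732, 52747 for oocyte_piRNA3488 and 51388 for piR-16. The next were 50749 for oocyte_piRNA311, 39556 for piR-1078, 36775 for oocyte_piRNA1479, 32389 for oocyte_piRNA2286 and 30015 for piR-14718. Of these 10, 5 had a tRNA as their closest feature of another class: oocyte_piRNA905 (tRNA-Glu-CTC-1-1), oocyte_piRNA3732 and oocyte_piRNA2286 (both tRNA-Gly-GCC-1-1), oocyte_piRNA3488 (tRNA-iMet-CAT-3-1, the initiator tRNA) and oocyte_piRNA1479 (tRNA-Val-AAC-1-1). Another 3 had an rRNA-annotated feature (oocyte_piRNA2795, piR-1078, piR-14718), and oocyte_piRNA311 and piR-16 had a miRNA.

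**Figure D1:**
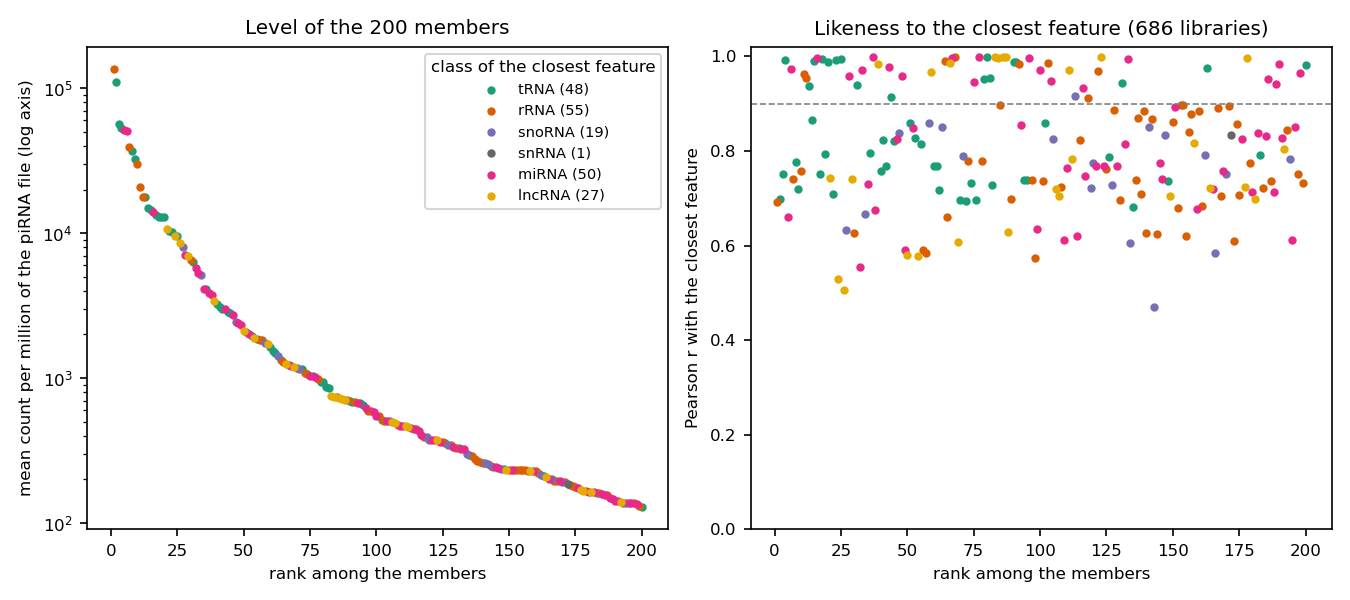
Left, mean count per 1000000 piRNA counts (log axis) of each of the 200 features by rank, coloured by the class of its closest feature; right, the correlation with that feature by rank, with a dashed line at 0.9. Abundance falls steeply over the first ranks from 135880, and high correlations occur at all ranks and in 5 of the 6 classes.

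The features fell into groups by the class they followed most closely. The closest feature was an rRNA for 55, a miRNA for 50, a tRNA for 48, a lncRNA for 27, a snoRNA for 19 and a snRNA for 1. By counts the order differed: the 48 features closest to a tRNA held 46.7% of piRNA counts, the 55 closest to an rRNA 27.3%, the 50 closest to a miRNA 17.2%, the 27 closest to a lncRNA 5.46% and the 19 closest to a snoRNA 2.38%. The correlation ran from 0.47 to 1.00 with a median of 0.79, and was under 0.7 for 40 features, so the assignment of many was loose. It was 0.9 or more for 55 features (27.5%; 19 miRNA, 17 tRNA, 10 lncRNA, 8 rRNA, 1 snoRNA), which held 29.1% of piRNA counts. Without the 166 libraries 50 reached 0.9. These correlations are over libraries with the tissue means removed, rest on shares of the same library totals, and are given as a description.

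In the closest pairs the counts of the 2 names moved together, at ratios that differed from pair to pair. piR-134752 followed miR-674-5p at r = 1.00 with a ratio of summed counts of 0.933, and was never above it in 686 libraries. oocyte_piRNA3488 followed tRNA-iMet-CAT-3-1 at r = 0.992 with a ratio of 0.960, oocyte_piRNA112 followed n-R5s62 at r = 0.998 with a ratio of 0.784, and piR-973 followed Snord104 at r = 0.916 with a ratio of 0.347. None of these 3 was above its partner in any library either. The SD of the log2 ratio between libraries had a median of 0.24 over the 55 close pairs and 0.78 over the remaining features, a difference that the choice by correlation fixes, and 25 of the 55 features were never above their partner. Whether the same reads were counted under both names is not given in the sources used here and was not tested.

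**Figure D2:**
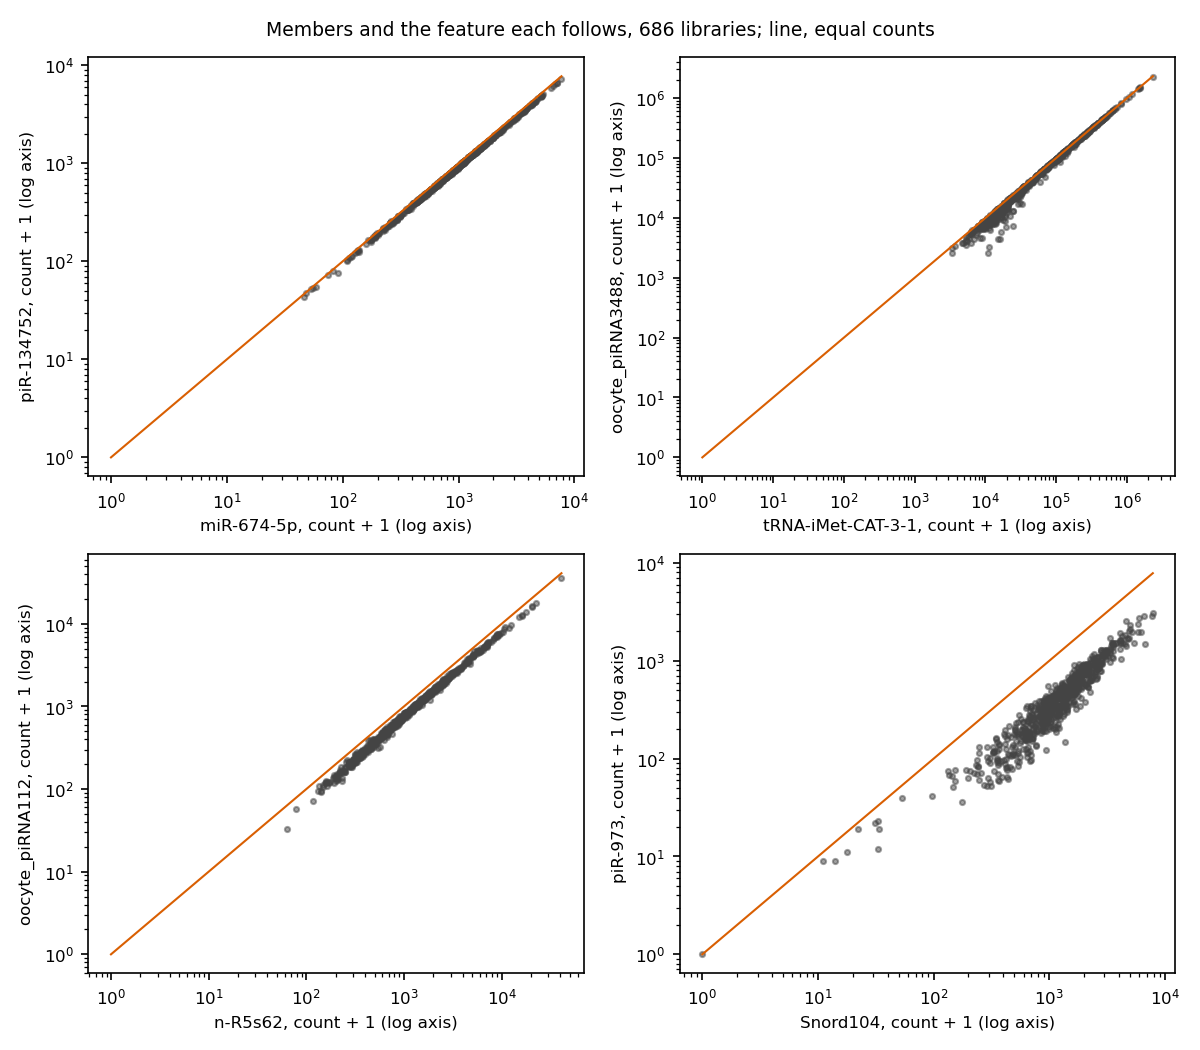
Counts of 4 features (vertical, log axis) against counts of their closest feature of another class (horizontal, log axis), 1 point per library (n = 686), with a line at equal counts. Points of piR-134752, oocyte_piRNA3488 and oocyte_piRNA112 run parallel to the line and just under it, and those of piR-973 lie further below with more scatter.

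The 48 features closest to tRNAs were spread over 14 amino acid groups (initiator tRNA apart from tRNA-Met), with most of their counts in few. The 8 features closest to tRNA-Glu genes held 17.7% of piRNA counts, the 6 closest to tRNA-Gly 12.2%, the 5 closest to initiator tRNA-iMet 5.59%, the 2 closest to tRNA-Val 5.18% and the 7 closest to tRNA-Lys 2.48%. All 5 of the tRNA-iMet features and 5 of the 8 tRNA-Glu features reached 0.9, against 2 of the 7 for tRNA-Lys, 1 of the 6 for tRNA-Gly and 0 of the 2 for tRNA-Val. The 3 with the highest correlation were oocyte_piRNA341 with tRNA-Ala-TGC-7-1 (0.998), oocyte_piRNA2096 with tRNA-Glu-CTC-2-1 (0.995) and oocyte_piRNA1270 with tRNA-Glu-CTC-5-1 (0.995). For rRNA they were oocyte_piRNA112, oocyte_piRNA3357 with n-R5s62 (0.991) and oocyte_piRNA3098 with n-R5s40 (0.985). For snoRNA they were piR-973, piR-974 with Snord104 (0.860) and piR-1361 with Snord15a (0.851), and for lncRNA oocyte_piRNA3577 with Gm37502 (0.999), oocyte_piRNA247 with Gm47875 (0.999) and oocyte_piRNA1611 with Gm47926 (0.998). The highest snRNA correlations were lower: oocyte_piRNA348 with Gm25280 (0.833), piR-892 with Gm24621 (0.830) and piR-22995 with Gm25280 (0.803). The features also duplicated each other. At a correlation of 0.95 or more with one another, 76 features formed 26 sets, the largest of 6 features that followed tRNA-Lys-CTT-3-1, so the 200 names are fewer than 200 separate signals.

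The summed level of the 200 features was highest in white fat and pancreas in LAR, highest in pancreas in TERM, and lowest in brain in both. As a share of the counts of the 7 classes it ran from 0.801% to 10.9% over libraries with a median of 2.24%. In LAR the mean was 4.12% ± 1.41 (SD, n = 28) in MAT, 3.99% ± 1.06 in SCAT, 3.85% ± 1.02 in GAT, 3.48% ± 1.34 (n = 28) in pancreas and 1.24% ± 0.404 (n = 12) in brain. In TERM it was 6.86% ± 2.41 (n = 11) in pancreas, 2.78% ± 1.24 in MAT, 2.67% ± 0.665 in diaphragm, 2.35% ± 0.536 in heart, 2.32% ± 0.782 in BAT, 2.31% ± 0.487 in liver, 2.22% ± 0.695 in lung, 2.19% ± 0.490 in SCAT, 1.91% ± 0.513 in GAT and 1.52% ± 0.157 (n = 13) in brain. Pancreas was thus higher in TERM than in LAR while GAT and SCAT were lower, and diaphragm, heart, lung and thymus differed by less than their SD. TERM pancreas held only mice of 3 months and LAR pancreas both ages. Without the libraries closer to another tissue, pancreas was 3.48% ± 1.21 and 7.30% ± 2.04 and MAT was 5.31% ± 2.03 (n = 4) and 3.28% ± 0.593 (n = 7). Ranges of all 3 arms overlapped in every tissue and collection. In LAR BAT the sum was 2.26% ± 0.285 in FL against 3.24% ± 0.908 in HGC and 2.94% ± 0.447 in VGC (n = 10 each), and 10 of 10 FL libraries were below the mean of either control group. In bulk tissue, fewer cells of a type and less RNA per cell cannot be told apart.

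**Figure D3:**
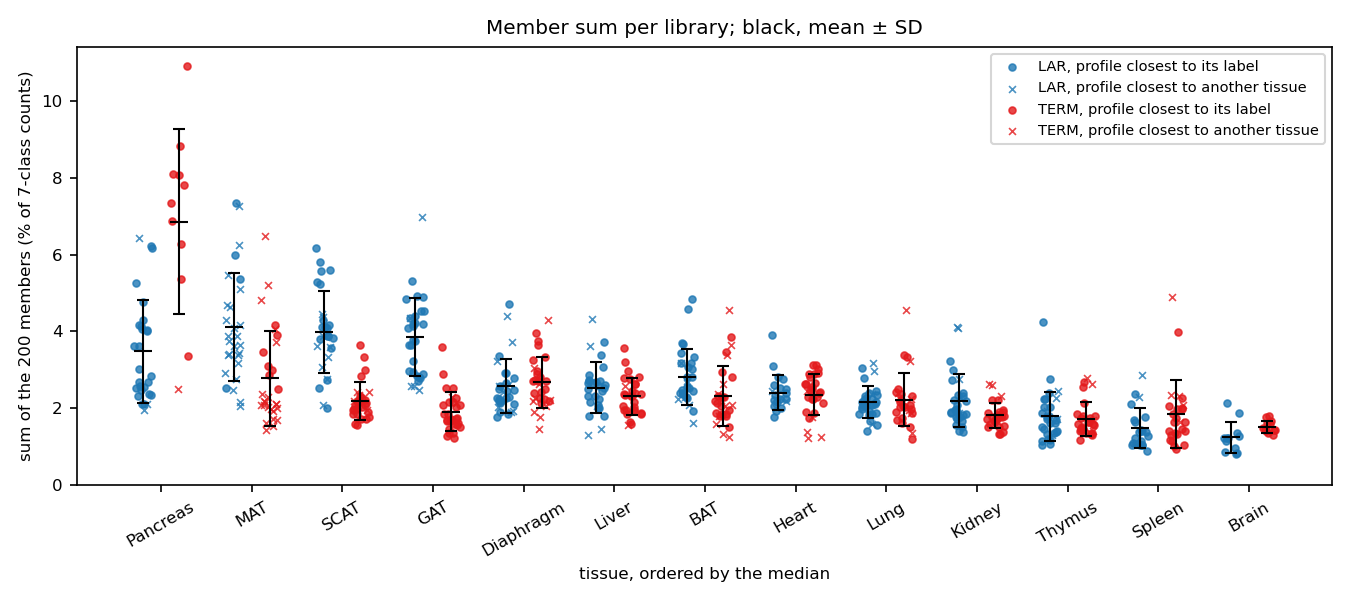
Summed level of the 200 features, in percent of the counts of the 7 RNA classes, 1 point per library by tissue for LAR and TERM, with the mean and SD in black and crosses for libraries whose miRNA profile was closest to another tissue. TERM pancreas sits highest, at a mean of 6.86%, and brain lowest in both collections.

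Single features had their own tissue patterns beneath this sum. Levels here are mean CPM of both collections with SD, unless a collection is named. oocyte_piRNA2795 had 11566 ± 6988 in pancreas and 6033 ± 3452 in liver but 1451 ± 1093 in SCAT. oocyte_piRNA905 had the opposite order among these, with 7628 ± 6193 in SCAT and 6069 ± 5005 in GAT, and 769 ± 588 in brain. Of the features closest to tRNA-Gly and tRNA-Val, oocyte_piRNA3732, oocyte_piRNA2286 and oocyte_piRNA1479 were highest in SCAT in LAR (5082 ± 2405, 3317 ± 1651 and 3489 ± 1817) but in pancreas in TERM (5874 ± 2916, 2099 ± 975 and 3013 ± 1448). oocyte_piRNA3488 was highest in MAT (3232) and lowest in brain (223). oocyte_piRNA311, closest to miR-23a-3p, had 3254 ± 1623 in lung, 1729 in heart and 299 in pancreas. piR-16, piR-1078 and piR-14718 were highest in pancreas, with 5091 ± 5229, 1802 and 1376. Over all 200 features, 59 had their highest tissue mean in pancreas, 57 in diaphragm (23 of them at least 2-fold above the next tissue) and 19 in spleen, and 105 had their lowest in brain. These counts depend on the collection: in LAR 70 were highest in diaphragm and 27 in pancreas, and in TERM 68 in pancreas and 54 in diaphragm. Over both collections without the 166 libraries it was 59 in diaphragm and 46 in pancreas.

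**Figure D4:**
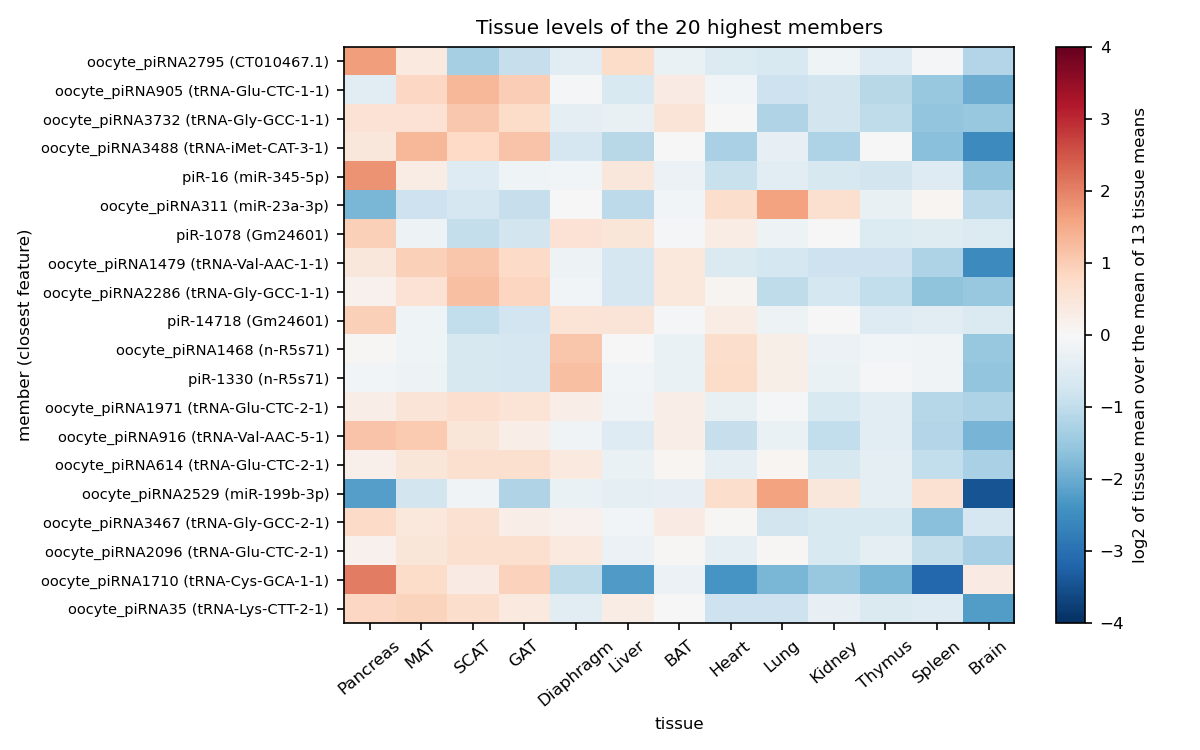
Heat map of the 20 most abundant features (rows) in 13 tissues (columns), coloured by log2 of the tissue mean CPM over the mean of the 13 tissue means. Means are over both collections, in which the leading features closest to tRNA-Glu, tRNA-Gly and tRNA-Val are high in SCAT and GAT, oocyte_piRNA311 is high in lung, and oocyte_piRNA2795 is high in pancreas and liver.

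Each tissue was tested against the mean of the other 12, with the mouse as a block, by edgeR's quasi-likelihood test over all piRNA features that passed a count filter, which all 200 did in every tissue fit. Calls needed a p under 0.05 after Benjamini-Hochberg adjustment and a log2 fold change beyond 1 in either direction. In LAR 563 of 2600 tests of the 200 features were called (325 higher), where 10.6% of all tests on piRNA features were called, and in TERM 517 of 2600 (326 higher), against 10.4%. Without the 166 libraries there were 657 (353 higher; 14.1% of all tests on piRNA features) and 764 (424 higher; 15.6%). Of 301 pairs of feature and tissue called in both collections, 300 had the same sign, which was 53.3% of the LAR calls and 58.0% of the TERM calls. Of the 48 features closest to tRNAs, 26 were called higher and 0 lower in LAR SCAT (3.74% of all piRNA features were called higher there), 26 and 0 in GAT (9.34%) and 22 and 0 in MAT (4.48%). In TERM these counts were 12 and 0 (3.07%), 9 and 0 (7.06%) and 13 and 0 (3.02%). MAT rested on few libraries of its own profile, and without the 166 libraries the SCAT, GAT and MAT counts were 26 and 0, 27 and 1 and 30 and 0 in LAR and 18 and 0, 12 and 0 and 32 and 0 in TERM. Over all tissues 14.1% and 15.6% of all tests were called in this setting, and its shares for single tissues are not given here. Changes in class counts with these libraries left out, here and below, are therefore not read as changes of the classes. In LAR brain 17 of them were called lower and 2 higher (2.55% of all were called lower), and in LAR spleen 11 and 1 (3.42%). In TERM brain none was called. The TERM brain mice were apart from those of the other tissues, so the mouse block leaves this contrast little power. The lack of calls there is not read as a difference from LAR. In TERM 42 were called higher and 1 lower in pancreas (9.1% of all were called higher), where LAR had 2 and 0, and 32 were called lower and 0 higher in spleen (4.24% of all were called lower). Of the 55 features closest to rRNAs, 25 were called higher and 0 lower in LAR diaphragm (9.46% higher over all), 25 and 1 in TERM diaphragm (7.87%) and 23 and 0 in TERM heart (7.67%), where LAR had 12 and 0 (5.92%). In pancreas 23 of them were called higher and 9 lower in LAR (5.42% and 15.6% over all) and 24 and 12 in TERM (9.1% and 20.2%). Of the 19 features closest to snoRNAs, 14 were called higher and 1 lower in LAR spleen (8.66% higher over all) and 13 and 1 in TERM spleen (9%), and 9 were called lower and 0 higher in LAR diaphragm (6.41% lower over all), against 6 and 0 in TERM (3.48%). With these libraries left out, 5 features closest to rRNAs were called higher in LAR heart and 12 closest to snoRNAs lower in TERM diaphragm, and of those closest to tRNAs 13 were lower and 2 higher in LAR brain, 36 lower and 0 higher in TERM spleen and 36 higher and 1 lower in TERM pancreas.

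Several features that followed a miRNA were called in a tissue where that miRNA is known to be abundant. piR-300, which followed the neuronal miR-138-5p, had 1303 ± 588 CPM in LAR brain (400 to 2229, n = 12) against 42.7 ± 31.4 in the next tissue, spleen, where the highest library had 135. Its log2 fold change in edgeR's quasi-likelihood test was 7.51 ± 0.29 (SE; adjusted p 9.54e-80), and in TERM 5.53 ± 0.95 with 955 ± 627 CPM in brain (284 to 2318). The highest libraries outside brain had 295 CPM in LAR and 275 in TERM, below every brain library of the same collection. oocyte_piRNA458, which followed miR-142a-3p of blood cells, had 51.0 ± 44.1 CPM in LAR spleen and 27.9 ± 21.0 in LAR thymus, with log2 fold changes of 4.78 ± 0.29 and 3.22 ± 0.23. oocyte_piRNA1714, which followed the endothelial miR-126a-3p, had 588 ± 294 CPM in LAR lung against 232 ± 133 in heart, with a log2 fold change of 2.64 ± 0.15. oocyte_piRNA659 (miR-10a-5p) was highest in kidney, with 53.7 ± 39.8 CPM against 22.4 ± 18.6 in lung and a log2 fold change of 3.88 ± 0.20 in LAR and 3.69 ± 0.44 in TERM. oocyte_piRNA3720 (miR-182-5p) was called higher in BAT, with 133 ± 97.5 CPM in LAR and a log2 fold change of 2.52 ± 0.29. oocyte_piRNA650, closest to the pancreatic miR-216a-5p, had 38.4 ± 21.4 CPM in LAR pancreas and a log2 fold change of 3.65 ± 0.16. LAR log2 fold changes without the 166 libraries ran from 2.83 for oocyte_piRNA1714 in lung to 7.71 for piR-300 in brain, and each was called. Ranges of these features, piR-300 in brain apart, overlapped those of other tissues.

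Features closest to tRNAs, and several closest to other classes, were called in 1 or more tissues as well. oocyte_piRNA1710, closest to tRNA-Cys-GCA-1-1, had 4928 ± 2472 CPM in TERM pancreas (169 to 8688, n = 11) against 1013 ± 1020 in MAT, with a log2 fold change of 5.42 ± 0.50. In LAR it was called in GAT instead, with 1283 ± 820 CPM against 802 ± 461 in SCAT and a log2 fold change of 3.75 ± 0.22. oocyte_piRNA905 had 12048 ± 5944 CPM in LAR SCAT (2021 to 27537) and 9939 ± 4285 in GAT, with a log2 fold change of 3.03 ± 0.16 in SCAT. oocyte_piRNA3488 was called in TERM GAT, MAT and SCAT, at 2946 ± 1439, 4571 ± 2512 and 1971 ± 888 CPM, while TERM pancreas had 4413 ± 2254. Called at low levels were piR-14661 in diaphragm (29.5 ± 25.8 CPM in LAR, log2 fold change 2.43 ± 0.17), oocyte_piRNA3399 in LAR liver (22.2 ± 20.8), oocyte_piRNA3445 in TERM liver (24.3 ± 21.5), oocyte_piRNA1088 in TERM lung (5.91 ± 5.37, with 10.6 ± 6.04 in kidney) and piR-341 in heart (14.0 ± 7.20 in LAR and 80.5 ± 47.8 in TERM). Of these, only oocyte_piRNA3399 and oocyte_piRNA3445 were closest to a tRNA. oocyte_piRNA2697, closest to the pancreatic miR-216a-5p, was called in LAR MAT at 536 ± 383 CPM, below the 876 ± 566 of pancreas. Without the 166 libraries its log2 fold change in MAT was 0.53 and no longer called.

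The comparison of FL with HGC in LAR addressed spaceflight at matched housing. A total of 49 of 2600 tests of the 200 features were called at an adjusted p under 0.05 (6 higher and 43 lower in FL), where 0.671% of all piRNA tests were called. They were 30 distinct features in 7 tissues: 16 calls in BAT (3 higher, 13 lower; 2.13% of all piRNA features tested there), 16 in kidney (0 and 16; 2.26%), 7 in GAT (3 and 4; 1.46%), 3 each in liver (0.417%), pancreas (1.16%) and thymus (0.749%), and 1 in heart (0.139%). Of the 49, 27 were features closest to tRNAs, all lower in FL. Scaled to the total of the 7 classes in place of trimmed mean (TMM) scaling within the piRNA table, calls were 23 higher and 36 lower, while over all piRNA features the split went from 11 higher and 56 lower to 73 higher and 51 lower (1.24% of all tests). Without the 166 libraries there were 106 calls, 32 higher and 74 lower (2.06% of all piRNA tests, 72 higher and 102 lower), of which GAT held 28 higher and 24 lower, and 42 were among the 49. Without mouse 16 of HGC there were 29 calls (1 higher and 28 lower; 0.389% of all piRNA tests), of which 26 were among the 49. The 29 were 12 in BAT, 10 in kidney, 3 in liver and 4 in thymus, with 0 in GAT, heart and pancreas.

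In BAT 5 of the 6 features closest to tRNA-Gly and 1 of the 8 closest to tRNA-Glu were called lower in flight mice, where 2.13% of all piRNA features tested were called, and none was called higher. oocyte_piRNA2739, closest to tRNA-Gly-GCC-1-1, had a lowest, median and highest CPM of 8.77, 32.4 and 40.5 in FL, 43.0, 87.2 and 476 in HGC and 43.9, 62.4 and 110 in VGC. FL did not overlap either control group, and the log2 fold change of FL over HGC was −2.04 ± 0.34 (SE, n = 10 and 10; edgeR adjusted p 1.35e-04). Against VGC it was −1.19 ± 0.33 (edgeR adjusted p 0.182), and no piRNA feature was called between FL and VGC in LAR BAT. oocyte_piRNA905 had 443, 2240 and 3754 in FL, 3384, 5322 and 10574 in HGC and 2011, 4660 and 8651 in VGC, with a log2 fold change of −1.57 ± 0.35 (edgeR adjusted p 0.00846). oocyte_piRNA2286 had 87.3, 904 and 1407 in FL, 660, 2277 and 5545 in HGC and 562, 1594 and 2801 in VGC, with −1.90 ± 0.40 (edgeR adjusted p 0.00787). Groups overlapped for both, and for oocyte_piRNA2286 the FL median lay above the lowest library of each control group. The 3 BAT features higher in FL all followed miRNAs: oocyte_piRNA3673 (miR-17-5p, 1.51), piR-104408 (miR-19b-3p, 1.54) and oocyte_piRNA458 (miR-142a-3p, 2.23), named here after their values were seen. Without mouse 16 only 1 call over all LAR tissues was higher in FL, so most of these 3 calls were lost. The calls of oocyte_piRNA2739, oocyte_piRNA905 and oocyte_piRNA2286 in BAT held under all 10 alternatives run, without mouse 16 and without the 166 libraries included.

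In kidney the counts of these groups were the same, 5 of the 6 closest to tRNA-Gly and 1 of the 8 closest to tRNA-Glu (2.26% of all piRNA features were called), and they rested on wide HGC groups. Other tRNA groups differed. In kidney 2 of the 3 closest to tRNA-Ala, 2 of the 2 closest to tRNA-Val and the 1 closest to tRNA-Gln were called lower. In BAT these counts were 0, 1 and 0, and 1 of the 7 closest to tRNA-Lys was called lower, against 0 in kidney. oocyte_piRNA1479, closest to tRNA-Val-AAC-1-1, had a lowest, median and highest CPM of 209, 312 and 684 in FL, 268, 868 and 4154 in HGC and 144, 277 and 1107 in VGC, with a log2 fold change of FL over HGC of −2.59 ± 0.54 (edgeR adjusted p 0.00926). oocyte_piRNA2286 had 169, 262 and 581 in FL, 263, 892 and 4293 in HGC and 101, 241 and 1258 in VGC, with −2.71 ± 0.56. oocyte_piRNA1710 had 14.0, 33.7 and 92.1 in FL, 28.4, 60.7 and 1353 in HGC and 11.5, 24.5 and 95.1 in VGC, with −3.41 ± 0.73. FL and VGC medians lay close together in kidney and HGC stood above both. In GAT 2 of the 6 closest to tRNA-Gly were called lower (1.46%). There, oocyte_piRNA1710 had 144, 691 and 1393 in FL and 196, 1586 and 2368 in HGC (−1.87 ± 0.50), and oocyte_piRNA2739 had 24.1, 87.6 and 114 against 67.0, 162 and 526 (−1.66 ± 0.42). Of 28 features closest to 5S rRNA-like genes, 3 were called there, all higher in FL and all closest to n-R5s62, among them oocyte_piRNA3357 with 7.62, 26.2 and 116 in FL and 1.74, 6.98 and 19.5 in HGC (1.68 ± 0.45, edgeR adjusted p 0.0409). All of these groups overlapped, and without mouse 16 none of the GAT features was called.

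A set of 3 features that duplicated each other, oocyte_piRNA3081, piR-1093 and piR-1076 (closest to miR-2137 and miR-467c-5p at correlations of only 0.61 to 0.63), was lower in FL than in HGC in liver and thymus. In liver, oocyte_piRNA3081 had a lowest, median and highest CPM of 1.10, 1.69 and 4.17 in FL, 1.67, 8.56 and 30.6 in HGC and 2.83, 6.45 and 58.4 in VGC. Its log2 fold change was −2.44 ± 0.54 against HGC (n = 10 and 9; edgeR adjusted p 0.0412) and −2.70 ± 0.54 against VGC (n = 10 and 10; edgeR adjusted p 0.00893). The HGC and VGC medians were both several-fold above FL. piR-1093 in liver was at −2.10 ± 0.51 against HGC and −2.30 ± 0.51 against VGC, and piR-1076 at −2.33 ± 0.54 and −2.47 ± 0.54. In thymus, oocyte_piRNA3081 had 3.01, 18.1 and 42.2 in FL and 13.3, 41.7 and 369 in HGC (−1.54 ± 0.36), and piR-1093 and piR-1076 were at −1.52 ± 0.36 and −1.35 ± 0.33. Against VGC the thymus values were −0.89 ± 0.35, −0.84 ± 0.35 and −0.90 ± 0.33, and none was called. The highest thymus library, and the highest of 67.4 in HGC heart where oocyte_piRNA3081 was called (−3.00 ± 0.65), were both of mouse 16. In pancreas oocyte_piRNA243, piR-1095 and oocyte_piRNA3445 were called lower in FL (−3.38 ± 0.65, −4.01 ± 0.94 and −2.50 ± 0.63), but HGC medians of 5.68, 0.385 and 1.58 CPM stood near the FL medians of 3.75, 0.270 and 1.70. The highest HGC pancreas library, again mouse 16, had 574, 174 and 142. Without mouse 16 the log2 fold changes were −1.16 for oocyte_piRNA3081 in heart and −0.46, 0.76 and 0.31 for the 3 pancreas features, and none of these was called. Against HGC, the calls of oocyte_piRNA3081 in liver and thymus held under all 10 alternatives run, of which leaving out mouse 16 leaves the liver fit as it was, since this mouse had no liver library.

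Against VGC, which share the same FL libraries, 8 features were called in LAR (2 higher and 6 lower in FL; 0.19% of all piRNA tests): the set of 3 in liver with oocyte_piRNA659 lower and oocyte_piRNA2697 higher there (0.694% of all piRNA features tested in liver), oocyte_piRNA1710 in pancreas (0.868%), and oocyte_piRNA243 and piR-1095 in SCAT (0.994%). Single libraries carried the last 3: oocyte_piRNA1710 had a median of 120 CPM in FL and 99.3 in VGC with 1 FL library at 11091, and oocyte_piRNA243 and piR-1095 had 1 VGC library at 634 and 699 over medians of 4.06 and 0.548. HGC against VGC gave 11 calls in LAR (10 higher and 1 lower in HGC; 0.17%). With age as a covariate 1 of the 11 was called. They included oocyte_piRNA1479, oocyte_piRNA2286 and oocyte_piRNA1710 in kidney (0.377% of all piRNA features tested there), with log2 fold changes of 2.38 ± 0.56, 2.41 ± 0.58 and 3.35 ± 0.76 (edgeR adjusted p 0.0469), and oocyte_piRNA750 in BAT (0.125%) and GAT (0.112%) and piR-1095 in heart (0.139%), pancreas (0.868%) and SCAT (0.373%). Scaled to the 7 classes, this comparison gave 11 higher and 14 lower, and over all piRNA features 28 and 30 (0.581%) in place of 14 and 3. Without the 166 libraries FL against VGC had 23 calls (12 higher and 11 lower), of which only 3 were among the 8, and HGC against VGC had 19 (all higher), of which 8 were among the 11. Without mouse 16, FL against VGC had 15 calls (5 higher and 10 lower), which held all 8. HGC against VGC then had 8 (4 and 4), of which 4 were among the 11, the 3 of kidney and piR-1095 in SCAT. For these comparisons, the shares over all piRNA features without the 166 libraries or without mouse 16 are not given here. Changes in these counts are therefore not read as changes of these features.

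In TERM fewer features were called between arms. FL against HGC gave 14 calls (13 higher and 1 lower; 0.241% of all piRNA tests), of which 13 were in pancreas (4.23% of all piRNA features tested there) with 4 FL and 5 HGC libraries. There, piR-1027 had 4.51, 17.3 and 163 CPM (lowest, median and highest) in FL and 4.40, 5.88 and 10.6 in HGC (log2 fold change 3.54 ± 0.77, edgeR adjusted p 0.00500), oocyte_piRNA1109 had 0.204, 0.449 and 31.1 against 0.236, 0.889 and 1.05, and piR-973 had 0.259, 0.637 and 6.33 against 0.0945, 0.187 and 0.642. The calls rested on 1 FL library: without FL replicate 1 of pancreas 1 of the 14 calls was made, and without the libraries closer to another tissue 0 in pancreas. In diaphragm, oocyte_piRNA458 had 0.330, 0.704 and 1.88 in FL and 0.432, 1.52 and 43.3 in HGC (−3.26 ± 0.76). FL against VGC gave 7 calls (0.116%) and HGC against VGC 9 (0.25%), all lower than VGC and all in kidney (0.924% and 1.76% of all piRNA features tested there). The VGC kidney medians were at 1.73 for piR-16542, 1.55 for piR-16541 and 1.51 for piR-14820, with 1.55, 1.34 and 1.14 in FL and highest VGC libraries of 60.9, 51.4 and 30.7. piR-10908, piR-892 and piR-2808 behaved alike against HGC, with VGC medians of 1.99, 0.775 and 0.971 and highest libraries of 27.8, 15.7 and 21.4. Without the 166 libraries there was no call in TERM kidney, and none of the 16, 6 and 2 calls then made in TERM between FL and HGC, FL and VGC and HGC and VGC was among those made with them.

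Age was compared over the arms, 8 against 3 months. In LAR 21 of 2400 tests of the 200 features were called (13 higher and 8 lower at 8 months; 0.51% of all piRNA tests), all in thymus (5.87%). oocyte_piRNA2795 had a lowest, median and highest CPM of 1213, 3193 and 5142 at 3 months and 376, 1748 and 4745 at 8 months (n = 15 each), with a log2 fold change of −1.22 ± 0.27 (edgeR adjusted p 0.0128). piR-16 had 313, 748 and 3560 against 166, 640 and 2461 (−0.79 ± 0.25, edgeR adjusted p 0.0489). Both fell at 8 months with wide overlap, and 3 calls were made in LAR without the 166 libraries, of which 1 was among the 21, and 17 without mouse 16, of which 15 were. Scaled to the 7 classes there were 116 higher and 1 lower, as part of a split of 320 higher and 9 lower over all piRNA features. In TERM 83 were called (31 higher and 52 lower; 1.62%; scaled to the 7 classes 26 and 20): 52 in SCAT (20 higher, 32 lower; 15.7% of all piRNA features tested there), 17 in MAT (all lower; 2%), 13 in thymus (10 and 3; 3.67%) and 1 in kidney (0.084%). In MAT 12 of the 17 were closest to tRNAs. oocyte_piRNA905 there had 1358, 5003 and 20327 CPM at 3 months and 582, 2377 and 3977 at 8 months (−1.49), oocyte_piRNA3732 had 458, 2662 and 7307 against 178, 1044 and 2117 (−1.63), and oocyte_piRNA2286 had 302, 1304 and 4884 against 88.9, 451 and 944 (−1.79). In SCAT oocyte_piRNA311 had 164, 373 and 689 at 3 months and 302, 692 and 4191 at 8 months (0.96, edgeR adjusted p 0.00826). In TERM 43 calls (3 higher and 40 lower; 32 among the 83) were made without the 166 libraries, and MAT could not be fitted. LAR brain and TERM pancreas held mice of 1 age.

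Whether the difference between FL and HGC depended on age was tested as an interaction. In LAR 14 features were called (1 higher and 13 lower; 0.191% of all piRNA tests), 6 in diaphragm (0.841% of all piRNA features tested there) and 8 in pancreas (1.3%). In diaphragm, oocyte_piRNA3488 had a lowest, median and highest CPM of 236, 775 and 1554 in FL and 175, 243 and 410 in HGC at 3 months, and 207, 218 and 438 in FL and 183, 394 and 4080 in HGC at 8 months (log2 difference −4.71 ± 1.11). The highest HGC library at 8 months was of mouse 16, and without it the log2 difference was −3.91 and no longer called. Without mouse 16, 6 were called in LAR, all in diaphragm and all lower, of which 4 were among the 14, and without the 166 libraries 17 (2 higher and 15 lower), of which 7 were. None of the 14 was called under both of these settings. In TERM 5 were called (0.122%), among them piR-14661 in MAT, with 1.26, 2.56 and 4.30 in FL and 0.409, 0.614 and 2.90 in HGC at 3 months, and 1.31, 1.73 and 2.47 in FL and 3.98, 8.98 and 27.0 in HGC at 8 months (−3.47). FL and HGC did not overlap at 8 months. In TERM 4 were called without the 166 libraries, none of them among the 5, and MAT could not be fitted.

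The collections were compared over all 3 arms of a tissue, and so with more libraries than the arms. Between LAR and TERM, 818 of 2600 tests of the 200 features were called (383 higher and 435 lower in LAR), where 25.3% of all piRNA tests were called, and all 200 features were called in at least 1 tissue and 185 in at least 2. Pancreas had 138 calls (69 and 69; 57.8% of all piRNA features tested there), MAT 116 (70 and 46; 36.8%), liver 108 (41 and 67; 36%), brain 99 (63 and 36; 50.3%) and diaphragm 0. Features closest to tRNAs were called higher in LAR in 58 tests and lower in 197, those closest to rRNAs in 126 and 63, those closest to miRNAs in 111 and 41, those closest to snoRNAs in 47 and 24, and those closest to lncRNAs in 40 and 107. Over all piRNA features 914 tests were called higher and 1352 lower. The tRNA-Gly feature oocyte_piRNA3732 rose in LAR GAT (log2 fold change 1.90) and SCAT (1.77) and fell in pancreas (−2.67), liver (−1.57) and brain (−1.37). oocyte_piRNA905 likewise rose in GAT (2.08) and SCAT (1.86) and fell in pancreas (−1.36), and oocyte_piRNA3488 fell in pancreas (−3.00) and thymus (−1.51). oocyte_piRNA2795 rose in MAT (2.13) and fell in SCAT (−0.66). In all arms the collections differ in the day of killing and in the freezing of tissue or carcass, and in FL also in flight duration and return to Earth, and the fit over the arms does not separate these. TERM spleen differs in having been placed fresh in RNA Later. TERM pancreas and LAR brain held only mice of 3 months, while LAR pancreas and TERM brain held both ages. Age was not in this fit, so in these tissues it is confounded with the collection. Without the 166 libraries there were 955 calls (461 and 494), of which 647 were among the 818 and MAT held 3 higher and 1 lower. The share over all piRNA features in that setting is not given here, so the rise from 818 is not read as one of these features.

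The sum of the 200 features was then set against the tRNA, rRNA and snoRNA shares of the same libraries, in percent of the counts of the 7 classes, within each tissue and collection (78 relations, permutation tests with Benjamini-Hochberg adjustment). With the snoRNA share the relation was negative: r had a median of −0.49 over the 13 LAR tissues, negative in all 13 and past an adjusted p of 0.05 in 8, and of −0.30 in TERM, negative in 12 and past in 3. It was strongest in brain and thymus. In LAR thymus (n = 30) r was −0.802 and Spearman's rho −0.801 (permutation p 1e-05, the smallest that 100000 resamples give; adjusted p 0.000390), −0.747 without the 2 libraries farthest from the median and −0.805 within sequencing plates. With the tRNA share the median r was 0.23 in LAR (4 positive past the threshold) and −0.13 in TERM (3 positive past it). In LAR kidney r was 0.816 (permutation test, adjusted p 0.000624; 0.793 without the 2 farthest libraries), but in TERM spleen 0.600 fell to 0.226 without 2 libraries. In LAR spleen r was 0.212 and rho 0.757, and r without 2 libraries was 0.866. With the rRNA share the median r was 0.11 in LAR (2 positive and 2 negative past the threshold) and 0.33 in TERM (2 positive). In LAR spleen it was 0.848, and 0.685 without the 2 farthest libraries. Without mouse 16 the LAR medians were 0.14 for tRNA, 0.36 for rRNA and −0.42 for snoRNA (6 past the threshold), and without the 166 libraries they were 0.45, −0.042 and −0.52 over 12 tissues.

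All shares add to 100%, so a class that takes more of a library lowers every other share. The tRNA share was 77.0% ± 8.91 in TERM GAT and 7.74% ± 10.6 in LAR brain. When the class compared was left out of the denominator of the sum, the median r was 0.80 in LAR and 0.75 in TERM for tRNA (12 and 13 tissues past the threshold), 0.52 and 0.52 for rRNA (7 and 8) and −0.31 and −0.089 for snoRNA. This denominator falls as the class share rises, which by construction raises r, so these values are not read as a relation. As log2 ratios to the miRNA count of the library, the median r was 0.82 and 0.77 for tRNA, 0.65 and 0.75 for rRNA and 0.34 and 0.23 for snoRNA. On this last scale both measures share the miRNA count as a divisor, which by construction raises r, so its sign is not read as a relation. Within plates the median r in shares was 0.27 and −0.16 for tRNA, 0.024 and 0.35 for rRNA and −0.53 and −0.36 for snoRNA. Between tissues, over 13 medians, the sum followed tRNA in LAR (r = 0.81) but not in TERM (0.069), and rRNA in TERM (0.90) but not in LAR (0.18), with −0.85 and −0.47 for snoRNA. These 13 points share libraries' composition and are a description.

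**Figure D5:**
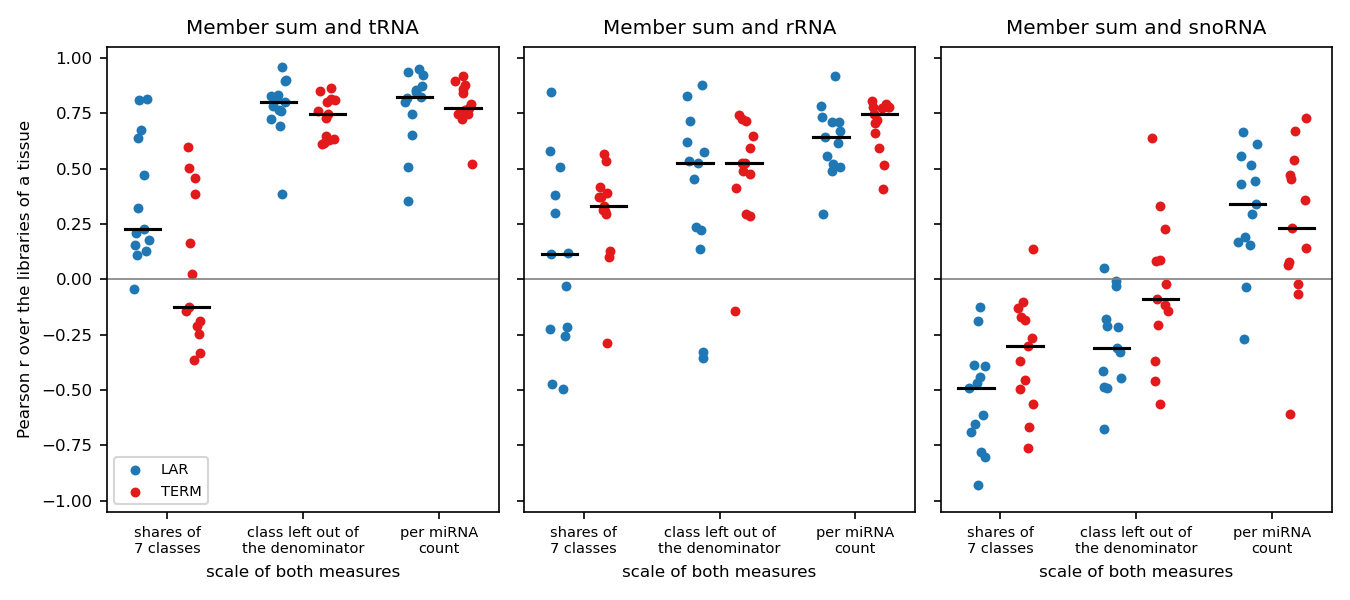
Pearson's r, 1 point per tissue and collection, between the sum of the 200 features and the tRNA, rRNA and snoRNA amounts on 3 scales, with the median as a bar. In plain shares the median for tRNA is near 0 (0.23 and −0.13), with the class left out of the denominator it is 0.80 and 0.75, and snoRNA is at −0.49 and −0.30 in shares and at 0.34 and 0.23 per miRNA count, where both measures share a divisor. Leaving the class out of the denominator also raises r by construction.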

How the data were processed

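The members and gene lists were chosen with earlier results of these data known. Small RNA libraries of 686 tissue samples were used. The authors aligned reads to GRCm39, quantified them with miRMaster and miRBase, and deposited raw counts per feature for each RNA class; the deposited miRNA values hold fractions and are estimated counts. How reads that match several features or classes were counted is not given in the sources used here. The circRNA and scaRNA files were not used. Library columns matched their labels by name, with 0 unmatched. Replicates are separate mice, no 2 libraries held the same values (closest pair r = 0.994, chi-square 237 per degree of freedom), and depth is given in the results.

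Features with at least 5 counts in 10% of the libraries of any arm were tested per tissue and collection in edgeR 4.0.16 (limma 3.58.1, R 4.3.3), with TMM scaling of the piRNA table, the quasi-likelihood test and a Benjamini-Hochberg adjusted p threshold of 0.05. Arm comparisons held all 3 arms of a tissue and collection, age and collection tests had the arm as a covariate, the interaction used groups of arm and age, and tissue tests had the mouse as a block and also required a log2 fold change beyond 1. Fold changes are on this scale, while levels are CPM, counts per 1000000 counts of the 7 classes. The SE of an edgeR fold change was back-computed as its absolute log2 value over the square root of the quasi-likelihood F. Relations used Pearson's r and Spearman's rho with two-sided permutation tests of 100000 resamples in scipy 1.17.1 (Python 3.11.15, numpy 2.4.6, pandas 2.3.3; figures in matplotlib 3.10.9). Scripts were tested on simulated data.

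Named features were the 10 most abundant, up to 3 per class with the highest correlation, the 3 called features with the smallest adjusted p beyond a log2 fold change of 1 per tissue and arm comparison, per tissue the called feature with the largest fold, and 5 on each side of the boundary. Alternatives were scaling to the 7 classes, the edgeR filter filterByExpr, no filter, DESeq2 1.42.0, age as a covariate, replicate number as a block, leaving out each library in turn (brain and TERM pancreas, whose groups held 5 or fewer), leaving out the 11 library pools in which more than 1 in 3 libraries had the miRNA profile of another tissue, and the study's rule (log2 fold of geometric medians beyond 1 and Cohen's d beyond 0.5). Leaving out the 166 libraries closer to another tissue, or mouse 16 of HGC LAR, was added after the data were seen. Replicate numbers did not pair samples: over 653 pairs with the same number in different arms, deviations correlated at 0.036 on average, against 0.010 for other pairs.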

Additional observations from a re-analysis of the deposited data

Results flagged for a closer look

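The summed share of the 200 features was examined in 77 groups of 4 to 10 libraries for a library far from its group, which chance alone gives in about 1 in 20 groups, and 13 groups had one. Libraries high in LAR were mouse 16 of HGC in diaphragm (4.70%, others 1.84 to 3.24%), heart (3.90%, others 2.21 to 2.81%) and thymus (4.25%, others 1.04 to 2.02%), diaphragm VGC replicate 11 (4.41%, others 1.78 to 2.91%), kidney VGC replicate 4 (4.09%, others 1.37 to 2.27%), pancreas FL replicate 14 (6.43%, others 1.96 to 4.13%) and pancreas VGC replicate 4 (6.23%, others 2.10 to 4.29%). Libraries high in TERM were BAT HGC replicate 13 (3.46%, others 1.51 to 2.29%), GAT FL replicate 1 (3.60%, others 1.57 to 2.54%), spleen FL replicate 12 (4.90%, others 0.945 to 2.34%), spleen HGC replicate 1 (3.98%, others 1.03 to 2.26%) and thymus HGC replicate 11 (2.62%, others 1.30 to 1.85%). Heart VGC replicate 12 of TERM was low (1.21%, others 2.13 to 3.01%). The miRNA profile was closest to another tissue in 6 of the 13: pancreas for diaphragm VGC replicate 11, spleen for heart VGC replicate 12, liver for kidney VGC replicate 4, MAT for pancreas FL replicate 14, SCAT for spleen FL replicate 12 and heart for thymus HGC replicate 11.

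The interaction of age with the difference between FL and HGC, by edgeR's quasi-likelihood fit, was called for 6 features in LAR diaphragm, 8 in LAR pancreas, 1 in TERM BAT, 2 in TERM GAT and 2 in TERM MAT (0.191% of all piRNA tests in LAR and 0.122% in TERM). Without mouse 16 of HGC LAR no pancreas call remained and 4 of the diaphragm calls did. Without the libraries closer to another tissue 7 of the 14 LAR calls and none of the 5 TERM calls were made. Groups in these fits held few mice of each age, with 3 HGC libraries at 8 months in LAR pancreas.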

How the results depend on the processing

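Counts of called features moved with the processing. Main counts for FL against HGC, FL against VGC, HGC against VGC, age and interaction were 49, 8, 11, 21 and 14 in LAR and 14, 7, 9, 83 and 5 in TERM. Scaled to the total of the 7 classes, HGC against VGC gave 25 and age 117 in LAR, and FL against VGC gave 33, HGC against VGC 34, age 46 and the interaction 29 in TERM. This scaling moved the median of all tested features by −0.62 to 0.47 (log2) between FL and HGC in LAR, beyond 0.1 in 7 of 13 tissues. With filterByExpr, FL against HGC gave 75 and the interaction 41 in LAR, and FL against HGC gave 0, FL against VGC 3, age 138 and the interaction 27 in TERM. With no filter, LAR gave 103, 55, 64, 44 and 31, TERM gave 40, 38 and 34 between arms and 24 for the interaction, and LAR against TERM gave 540 in place of 818. DESeq2 gave 94 for FL against HGC, 33 for FL against VGC, 52 for age and 71 for the interaction in LAR, and 28 for FL against VGC, 36 for HGC against VGC, 180 for age and 31 for the interaction in TERM. Without the 11 pools, FL against VGC gave 15 and age 6 in LAR, and FL against HGC gave 35, HGC against VGC 45 and the interaction 1 in TERM. With age as a covariate, FL against VGC gave 4 and HGC against VGC 1 in LAR. Without the libraries closer to another tissue, LAR gave 106, 23 and 19 between arms and 3 for age, and TERM gave 2 for HGC against VGC and 43 for age. The study's rule gave 92, 57 and 39 in LAR and 78, 120 and 97 in TERM, with 55 higher and 37 lower for FL against HGC in LAR. Over all piRNA features this rule called 93, 58 and 39 tests in LAR (0.932%, 0.581% and 0.391%). In TERM it called 83, 140 and 126 (0.74%, 1.25% and 1.12%). The main shares were 0.671%, 0.19% and 0.17% in LAR and 0.241%, 0.116% and 0.25% in TERM. Without mouse 16, LAR gave 29 for FL against HGC, 15 for FL against VGC and 6 for the interaction. Shares over all piRNA features are not set beside the counts of the other alternatives, so these shifts are not read as shifts of these features alone. The cause of these shifts was not tested, beyond fewer libraries or other features entering the fit.

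With the replicate block, LAR gave 23, 4 and 0 calls between arms and TERM gave 1, 1 and 1, but the numbers did not pair samples. For HGC against VGC in LAR, 133 tests of the 200 features had an unadjusted p under 0.05 with the block. Of 45 named arm results, 15 kept their call with the block and 30 lost it.

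Leaving out 1 library at a time in brain and TERM pancreas gave 49 to 49, 8 to 8 and 11 to 11 calls in LAR, where brain held no call, and in TERM 1 to 33 for FL against HGC, 7 to 11 for FL against VGC and 9 to 12 for HGC against VGC. For TERM pancreas, FL against HGC gave 1 call without FL replicate 1, 8 without FL replicate 3, 33 without FL replicate 2 and 32 without FL replicate 4, 9, 5, 7 and 9 without HGC replicates 1, 2, 3 and 5, and 5 without VGC replicate 3. FL against VGC gave 11 without VGC replicate 7 of brain.

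Median relations also moved. For tRNA in LAR (0.23) they were 0.80 with the class out of the denominator, 0.82 per miRNA count and 0.68 without the 11 pools. For tRNA in TERM (−0.13) they were 0.0050 on log2 shares, 0.75 with the class out of the denominator and 0.77 per miRNA count. Leaving the class out of the denominator and sharing the miRNA count as a divisor both raise r by construction. For rRNA they were 0.65 per miRNA count, −0.36 without the 11 pools and −0.042 without the libraries closer to another tissue in LAR (0.11), and 0.75 per miRNA count in TERM (0.33). For snoRNA they were 0.34 in LAR (−0.49) and 0.23 in TERM (−0.30) per miRNA count.

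Named features whose log2 difference changed sign did so as follows. Without the 11 pools these were oocyte_piRNA1109 (FL against HGC, TERM pancreas, −0.30), oocyte_piRNA243 (FL against VGC, LAR SCAT, 0.070), piR-1095 (LAR SCAT, 0.074 for FL against VGC and 0.11 for HGC against VGC), piR-16541 and piR-16542 (FL against VGC, TERM kidney, 0.22 and 0.21), and piR-10908 and piR-892 (HGC against VGC, TERM kidney, 0.053 and 0.20). Without the libraries closer to another tissue they were oocyte_piRNA1710 (FL against VGC, LAR pancreas, −0.056), oocyte_piRNA243 (0.12), piR-16541 (0.087), piR-16542 (0.084), piR-10908 (0.14), piR-2808 (0.24) and piR-892 (0.15). In DESeq2 they were oocyte_piRNA243 (HGC against VGC, LAR pancreas, −0.13), oocyte_piRNA3445 (FL against HGC, LAR pancreas, 0.26) and piR-1095 (0.021). By the study's rule they were oocyte_piRNA1109 (−0.40), oocyte_piRNA3445 (0.066), oocyte_piRNA750 (HGC against VGC, LAR BAT −0.0099 and GAT −0.035), piR-10908 (0.033) and piR-1095 (HGC against VGC, LAR SCAT, 0.019). Without mouse 16 they were oocyte_piRNA243 (HGC against VGC, LAR pancreas, −0.17), and oocyte_piRNA3445 (0.31) and piR-1095 (0.76) for FL against HGC there.

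Shallow features limit the calls, since several of the called differences in pancreas, SCAT and TERM kidney lie between groups with medians near 1 CPM and 1 high library.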

Other observations

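Values of mouse 16 of HGC LAR are given here without an explanation, and the mouse and its features were chosen after their values were seen. Its 11 libraries were spread over 8 pools and 5 sequencing plates, so they do not share 1 pool. The 12 features that were highest in it in 8 or more tissues were oocyte_piRNA1611, oocyte_piRNA2109 and oocyte_piRNA922 (closest to lncRNA Gm47926), oocyte_piRNA2161 (Gm48336), oocyte_piRNA247 (Gm47875), oocyte_piRNA750 (Gm20186), piR-1095 (Gm12840), oocyte_piRNA3081 and piR-1093 (miR-2137), oocyte_piRNA539 (miR-3473b) and oocyte_piRNA243 and oocyte_piRNA3445 (tRNA-Trp-CCA-2-1). In thymus, piR-1095 had 121 CPM in this mouse and 0.162 to 1.62 in the 9 other HGC mice. In BAT, oocyte_piRNA750 had 410 CPM and 1.13 to 7.29 in the others, and in GAT it had 334 against 1.43 to 10.0. In pancreas, oocyte_piRNA243 had 574 CPM against 3.93 to 9.11 in 7 other mice, and oocyte_piRNA247 had 158 against 2.52 to 12.5. All 12 stood above every other HGC mouse in 9 of the 11 tissues, 10 did in lung and 1 did in spleen, where 4 were below every other mouse (oocyte_piRNA3081 with 2.74 CPM against 5.99 to 63.6). The tRNA share of the mouse was 45.0% in heart, against 10.7 to 16.9% in the others, and 73.3% in diaphragm, against 9.75 to 65.0%, while its snoRNA share was highest in 0 of 11 tissues and its rRNA share in 1.

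Sums of features grouped by closest class were also set against the share of that class. The median r over 13 tissues was 0.66 in LAR and 0.47 in TERM for features closest to tRNAs (positive in 13 of 13 in both), 0.60 and 0.68 for those closest to rRNAs (13 of 13 in both), 0.70 and 0.66 for miRNAs, 0.37 and 0.55 for snoRNAs and 0.13 and 0.38 for lncRNAs. The groups were chosen by correlation in the same libraries, so these values describe the groups and test nothing.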
